A study of Mus musculus with 15 samples.

Results

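The 38 genes described here encode the machinery that carries proteins between the endoplasmic reticulum (ER) and the Golgi apparatus. They were followed by symbol through RNA-seq of mouse neural progenitor cells, precursors that still divide and give rise to neurons and glia. All 38 were found among the 34989 genes with counts, and all 38 were among the 15147 genes that passed a filter on low counts and were tested. The list was drawn up after Tmed3 and Sec13 had been seen to be higher in 1 of the comparisons, that of shLINE_Orf1 with shControl. For that comparison the values of the 38 genes are therefore given as a description, with no test.

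The cells were wild type in every group and were kept with FGF2, EGF and heparin. They received a plasmid coding for EGFP and for a hairpin RNA (shRNA) that directs the breakdown of transcripts it pairs with, and the GFP-positive cells were sorted 3 days later. LINE-1 elements are repeats that copy themselves through RNA. The 5 groups of 3 libraries were a control hairpin (shControl), 3 hairpin groups against LINE-1 (shLINE_Orf1, shLINE_Orf2 and shLINE_MdV_I), and a group given a full-length LINE-1 together with its hairpin (shLINE_Orf1+LINE-1). The design text speaks of hairpins against young and against old LINE-1 elements, and of the full-length element given with the hairpin against the young ones. The labels do not say which age of element shLINE_Orf2 and shLINE_MdV_I match. LINE-1 RNA itself was not analysed here, so the lowering of the target was not checked. All groups carry a hairpin plasmid and EGFP and went through the sort, and the labels do not say that the 3 libraries of a group came from separate cultures. The p-values then measure only the spread between these libraries, which may be technical.

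Each library held between 39208923 and 51075758 counts on genes. The 8 markers of neural progenitors chosen for the check, among them Sox2, Nes, Pax6 and Fabp7, all passed the filter, and their summed level lay between 5933 and 9825 CPM (a count scaled to the size of its library), with the maximum in a shLINE_Orf1 library. The 7 neuronal markers summed to 340 to 522 CPM and the 6 astrocytic markers, some of which progenitors express too, to 2541 to 3499 CPM. The 5 microglial and blood markers stayed at or under 2.44 CPM in sum, with Aif1 at 0 in all libraries, and the 6 fibroblast and pericyte markers at or under 1.42 CPM. The 5 oligodendrocyte markers summed to at most 12.8 CPM and the 4 endothelial markers to 21.6 to 48.5 CPM. Of these lists, Snap25 and Sparcl1 were the only markers called in any comparison with shControl. A pair of libraries stood apart from the rest. These were replicate 1 of shLINE_Orf1, with 3.61% of its counts on mitochondrial mRNA, and replicate 2 of shControl, with 2.02%. The others held 1.36% to 1.97%, so that shControl replicate 2 lay close to them on this measure. Over all genes tested, Spearman's rho between a gene's deviation from its mean and its exon length was -0.41 and -0.39 in this pair. It ran from -0.24 to 0.37 in the others. In sorted cell populations read in bulk, a lower share of cells with a transcript and less of it per cell cannot be told apart.

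Secretory and membrane proteins are made at the ER and leave it in vesicles that are shaped by the COPII coat, whose inner layer of SEC23 and SEC24 selects cargo and whose outer cage is built of SEC13 and SEC31. The GTPase SAR1, switched on by PREB, starts the coat, and SEC16 organises the sites where it forms. Traffic back from the Golgi uses the COPI coat, a complex called coatomer that is recruited by the GTPase ARF1 after activation by GBF1. Cargo receptors cycle between both membranes: the p24 proteins (TMED family), the lectins LMAN1 and LMAN2, and the KDEL receptors, which bring back escaped ER chaperones.

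Tmed3, a p24 cargo receptor, and Sec13, the COPII cage subunit that is also a part of the nuclear pore, were the members that stood out. Both were higher in all 12 libraries with a LINE-1 hairpin than in all 3 shControl libraries, including the libraries that also received the full-length LINE-1. Of all genes tested, 133 (0.878%) had that pattern upwards, and 2 of the 38 members did (5.26%), both of which had led to the choice of the list. No member had the pattern downwards, against 0.403% of all genes.

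Tmed3 (ENSMUSG00000032353.9) lies on the minus strand of chromosome 9 between 89699206 and 89705068 in GRCm38, the build named mm10 in the processing notes. Sec13 (ENSMUSG00000030298.10) lies on the minus strand of chromosome 6 between 113728062 and 113740743. No exon of another annotated gene overlaps the exons of either, and 1 coding transcript held 99.2% of the Tmed3 counts and 99.3% of the Sec13 counts. Because both genes were higher in the same libraries, the 250 bases before the RefSeq transcription start of each are shown (GRCm38.p6, minus strand, chr9:89705044-89705293 and chr6:113740682-113740931). Capitals mark CCACG read on either strand, the short box that is also the last part of ER stress response elements.
Tmed3: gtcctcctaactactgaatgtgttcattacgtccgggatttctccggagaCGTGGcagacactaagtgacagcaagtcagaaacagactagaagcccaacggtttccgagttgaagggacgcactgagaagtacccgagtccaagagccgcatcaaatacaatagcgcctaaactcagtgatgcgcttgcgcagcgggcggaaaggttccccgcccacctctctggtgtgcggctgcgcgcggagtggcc
Sec13: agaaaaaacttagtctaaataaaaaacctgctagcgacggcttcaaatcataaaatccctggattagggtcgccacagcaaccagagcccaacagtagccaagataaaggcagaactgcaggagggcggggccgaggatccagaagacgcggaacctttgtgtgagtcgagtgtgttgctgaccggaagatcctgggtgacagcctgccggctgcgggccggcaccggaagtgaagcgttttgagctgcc
The box occurs once in the Tmed3 stretch, and in Sec13 a box begins 2 bases before the start and runs past the end of the stretch shown. Such a short box is common: it was in 50.6% of the promoters of genes tested.

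In shControl, Tmed3 stood at 72.6, 99.9 and 76.2 CPM in replicates 1 to 3 (82.9 ± 14.8, SD, n = 3). CPM values use library sizes scaled by TMM. The shLINE_Orf1 libraries held 181, 129 and 132 CPM (147.6 ± 29.2). The highest of all 15 values was that of shLINE_Orf1 replicate 1, a library that stood apart, and the highest shControl value was that of shControl replicate 2, the other such library.
The shLINE_Orf2 libraries held 133, 118 and 123 CPM of Tmed3 (124.4 ± 7.43), and the shLINE_MdV_I libraries 104, 115 and 123 CPM (113.8 ± 9.98). With the full-length LINE-1 added, the values were 116, 122 and 119 CPM (119.2 ± 2.82). None of these 9 libraries fell into the shControl range.

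The fold over shControl was 1.78 for shLINE_Orf1, a log2 difference of 0.83 ± 0.14 (SE). It was 1.5 for shLINE_Orf2, 1.37 for shLINE_MdV_I and 1.44 for shLINE_Orf1+LINE-1. With edgeR's quasi-likelihood test and p-values adjusted by Benjamini-Hochberg over all genes, Tmed3 did not pass the threshold of 0.05 in these 3 comparisons. The log2 difference was 0.59 ± 0.14 with an adjusted p of 0.134 for shLINE_Orf2, 0.46 ± 0.14 with 0.222 for shLINE_MdV_I, and 0.52 ± 0.14 with 0.19 for shLINE_Orf1+LINE-1. All of these comparisons use the same 3 shControl libraries, and are not independent of each other.

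Sec13 in shControl stood at 137, 172 and 161 CPM (156.7 ± 17.7). It reached 302, 211 and 245 CPM in shLINE_Orf1 (252.7 ± 46.2). As for Tmed3, the highest value of all was that of shLINE_Orf1 replicate 1.
The other groups lay close to each other, at 218, 207 and 228 CPM in shLINE_Orf2 (217.7 ± 10.2), 225, 221 and 232 CPM in shLINE_MdV_I (226.0 ± 5.46), and 219.9, 225 and 228 CPM in shLINE_Orf1+LINE-1 (224.4 ± 4.22). The lowest Sec13 value with a LINE-1 hairpin was 207 CPM and the highest without one was 172 CPM.

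The fold of Sec13 over shControl was 1.61 in shLINE_Orf1, a log2 difference of 0.69 ± 0.12. The difference was 0.47 ± 0.12 in shLINE_Orf2 (adjusted p = 0.16), 0.53 ± 0.12 in shLINE_MdV_I (adjusted p = 0.0609) and 0.52 ± 0.12 in shLINE_Orf1+LINE-1 (adjusted p = 0.11), by edgeR's quasi-likelihood test. None of these passed the threshold. Per length, in TPM (a share of all transcripts, corrected for their length), shControl was again the lowest group for both genes, but the order of the others changed for Sec13. Tmed3 stood at 104.3 ± 5.48 TPM in shControl and between 150.5 and 167.8 TPM in the means of the other groups. Sec13 stood at 200 ± 15.6 TPM in shControl and at 282.8 to 299.9 TPM in the other means. In TPM its mean was highest in shLINE_MdV_I (299.9), then shLINE_Orf1+LINE-1 (292.9) and shLINE_Orf1 (288.8), whereas in CPM shLINE_Orf1 was the highest. The ratio of the shLINE_Orf1 mean to that of shControl was 1.44 in TPM for Sec13 and 1.61 for Tmed3.

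Among the groups with a LINE-1 hairpin, neither gene passed the test in any of the 6 comparisons. Adding the full-length LINE-1 to the shLINE_Orf1 hairpin gave Tmed3 values that were all below those of shLINE_Orf1 alone, with a log2 difference of -0.31 ± 0.14 (adjusted p = 0.422, edgeR). Sec13 differed by -0.17 ± 0.12 (adjusted p = 0.481), and its libraries overlapped. Tmed3 in shLINE_MdV_I was also below all shLINE_Orf1 libraries (log2 difference -0.38 ± 0.14, adjusted p = 0.242). The group shLINE_Orf1 was shared by these comparisons and by the one that led to the choice of the genes.

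**Figure D1:**
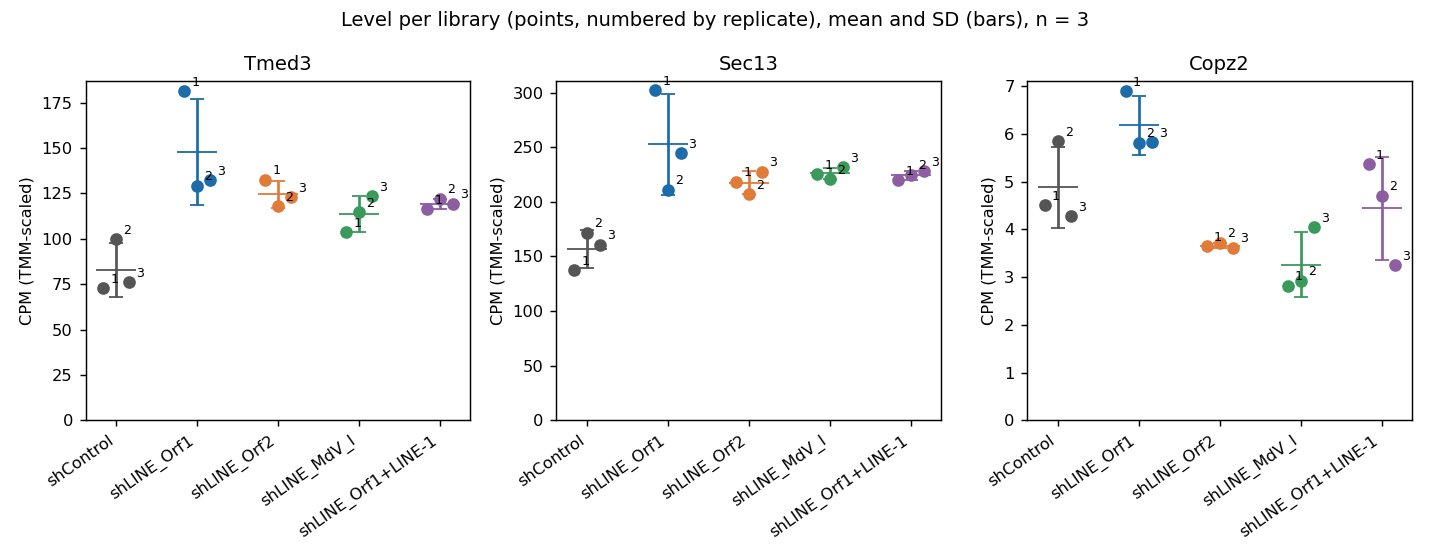
Level of Tmed3, Sec13 and Copz2 in each library (points, numbered by replicate), in CPM on axes that start at 0; the horizontal line is the mean and the bars are the SD (n = 3). For Tmed3 and Sec13 all points of the 4 groups with a LINE-1 hairpin lie above the shControl points, while Copz2 has its lowest means in shLINE_MdV_I and shLINE_Orf2.

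The libraries that stood apart moved these results. Without shLINE_Orf1 replicate 1 and shControl replicate 2, Tmed3 passed the test against shControl with log2 differences of 0.74 in shLINE_Orf2 (adjusted p = 0.000171), 0.62 in shLINE_MdV_I (0.000497) and 0.69 in shLINE_Orf1+LINE-1 (0.000371). Sec13 passed with 0.55 (0.00249), 0.60 (0.000844) and 0.60 (0.00137) in the same order of groups. The edgeR test then called more genes in all, 1.77%, 2.53% and 2.30% of those tested. The shControl library left out held the highest shControl value of both genes, 99.9 CPM for Tmed3 and 172 CPM for Sec13. Leaving it out lowers their shControl mean and leaves fewer shControl libraries. The shControl libraries also entered the comparison that led to the choice of both genes, so these p-values are not independent of that choice. In shLINE_Orf1 the differences were 0.81 for Tmed3 and 0.61 for Sec13 without both libraries, close to those with them. With only 1 library of either group left out, they ran from 0.66 to 0.99 for Tmed3 and from 0.54 to 0.82 for Sec13.

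Transcript length moved with the members' levels from library to library. Spearman's rho between a member's deviation from its mean over the 15 libraries and the length of its transcripts, over the 38 genes of 1 library, ran from -0.825 in shLINE_Orf1 replicate 3 and -0.755 in shLINE_Orf1 replicate 1 to 0.807 in shControl replicate 1. The points of such a correlation share a library and its depth, and it is given as a description. Tmed3 and Sec13, with transcripts of 1348 and 1350 bases, are among the 10 shortest members. These 10, of 929 to 1676 bases, had a median deviation of 0.40 in shLINE_Orf1 replicate 1 and -0.24 in shControl replicate 1. The 10 longest, of 4045 to 8432 bases, stood at -0.85 and 0.25 in the same libraries.
The other 8 short members had log2 differences from shControl of 0.03 to 0.54 in shLINE_Orf1 (median 0.17), -0.41 to 0.20 in shLINE_Orf2 (median 0.04), -0.58 to 0.30 in shLINE_MdV_I (median 0.05) and -0.19 to 0.22 in shLINE_Orf1+LINE-1 (median -0.01). Another fit removed from every library the trend on the length of all exons of a gene, 2847 bases for Tmed3 and 3184 for Sec13. The trend on transcript length was not itself removed. Tmed3 then stood at 0.79, 0.60, 0.47 and 0.54 over shControl in the same order of groups, and Sec13 at 0.66, 0.48, 0.53 and 0.52. The adjusted p of Tmed3 was then 0.0265 for shLINE_Orf2, 0.0601 for shLINE_MdV_I and 0.0476 for shLINE_Orf1+LINE-1, and that of Sec13 was 0.0531, 0.0199 and 0.0347. This fit also called more genes in all, 0.475%, 1.02% and 0.462% of those tested in these groups. The same shControl libraries entered the choice of both genes, so these p-values are not independent of that choice.

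**Figure D2:**
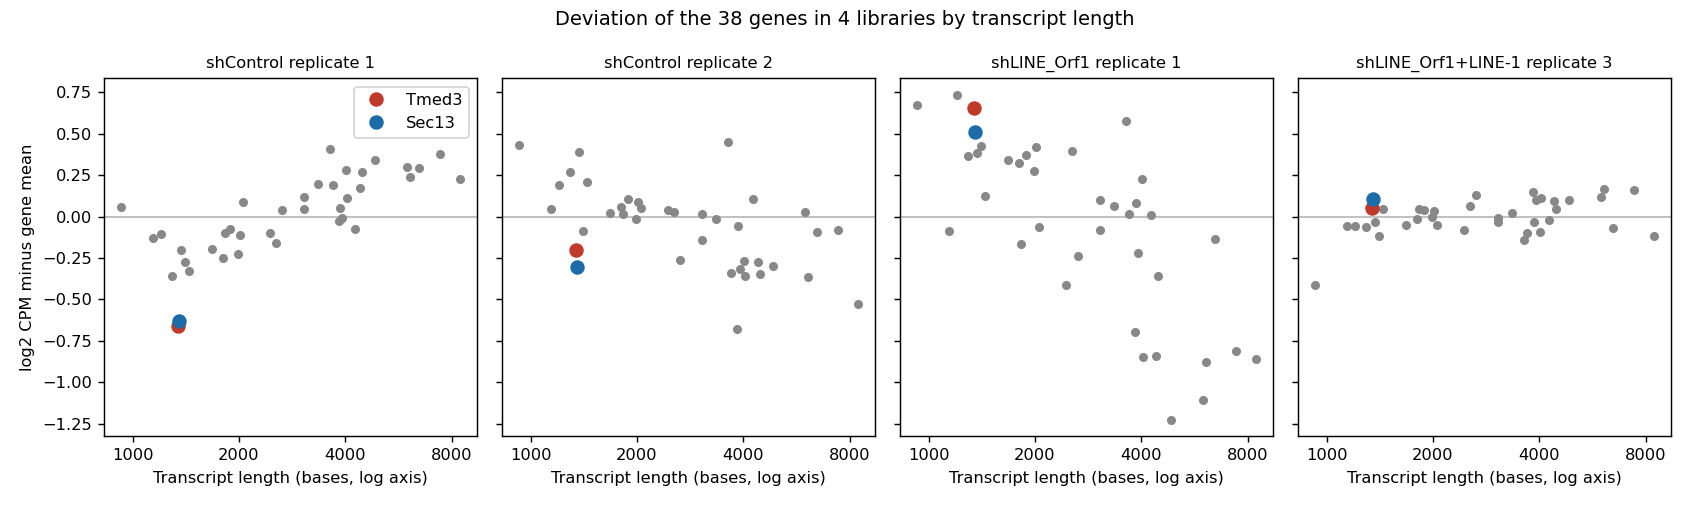
Deviation of each of the 38 genes from its own mean over the 15 libraries (log2 CPM, vertical axis) against the length of its transcripts in bases (log axis), in 4 libraries. Long members are high in shControl replicate 1 and low in shControl replicate 2 and shLINE_Orf1 replicate 1, and Tmed3 and Sec13 lie below most short members in both shControl libraries.

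The number at the end of the library description in the labels is 1 or 12, and its meaning is not stated. It is 12 in shLINE_Orf1 replicate 1 and in shLINE_MdV_I replicates 2 and 3, and 1 in all others. With it as a covariate, the log2 difference of Tmed3 between shLINE_MdV_I and shControl was 0.23 in place of 0.46. The only library of shLINE_MdV_I with the number 1 held 104 CPM of Tmed3, the lowest of the 12 with a LINE-1 hairpin.

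For the list as a whole, the middle of the 38 differences lay near that of all genes. The median log2 difference from shControl over the 38 members was 0.02 in shLINE_Orf1, 0.00 in shLINE_Orf2, 0.04 in shLINE_MdV_I and 0.03 in shLINE_Orf1+LINE-1, beside medians of -0.01, -0.01, -0.01 and -0.02 over all genes tested. Between 28 and 35 of the 38 members lay within 0.25 of shControl on the log2 scale, with a median standard error of 0.118. Summed over the 38 genes, the level was 5372 ± 64.2 CPM in shControl, 5736 ± 378.6 in shLINE_Orf1, 5432 ± 16.8 in shLINE_Orf2, 5555 ± 28.4 in shLINE_MdV_I and 5574 ± 55.9 in shLINE_Orf1+LINE-1. The spread of shLINE_Orf1 came with 1 value of 6173 CPM in replicate 1, while its other libraries held 5503 and 5532 CPM. The place of that library turned with the scale: these CPM are TMM-scaled, whereas its members held 0.527% of its counts, the second lowest share of the 15 libraries, and summed to 4020 TPM (per length), the lowest of them. In TPM the sums of shControl and shLINE_Orf1 were 4434 ± 323.2 and 4441 ± 377.5, so the higher CPM sum of shLINE_Orf1 was not found on that scale. The TPM sums of the other groups were higher, at 4611 ± 158.5 in shLINE_Orf2, 4815 ± 96.0 in shLINE_MdV_I and 4712 ± 52.2 in shLINE_Orf1+LINE-1. All of these sums include Tmed3 and Sec13, which led to the list. Without them the sum was 5132 ± 34.1 CPM in shControl and 5336 ± 306.2 CPM in shLINE_Orf1. In shLINE_Orf2 it was 5090 ± 27.6 CPM, a mean below that of shControl. It was 5215 ± 42.0 CPM in shLINE_MdV_I and 5230.5 ± 62.1 CPM in shLINE_Orf1+LINE-1.

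Called members were few. In shLINE_Orf1 against shControl they were Tmed3 and Sec13, both higher; the test called 0.178% of all genes there (0.139% higher), and nothing is read from that count because the comparison led to the choice. No member was called against shControl in shLINE_Orf2 (0.191% of all genes called), shLINE_MdV_I (0.594%) or shLINE_Orf1+LINE-1 (0.139%). At an unadjusted p under 0.05 there were 2, 3 and 4 members in these comparisons, 5.26%, 7.89% and 10.5% of the list, beside 7%, 8.64% and 8.77% of all genes. By DESeq2, 2, 1 and 2 members were called, beside 1.16%, 2.02% and 1.38% of all genes, and by limma-voom 2 in each, beside 2.53%, 2.52% and 3.56%. One member of 38 is 2.63% and 2 are 5.26%. The members called by DESeq2 and limma-voom were Tmed3, Sec13 or both, and both were also among those counted at an unadjusted p under 0.05. These genes led to the choice of the list, so nothing about the list is read from these counts.
Adding the full-length LINE-1 to shLINE_Orf1 changed no member by the edgeR test, which called 0 genes of 15147 in that comparison. At an unadjusted p under 0.05, 6 members (15.8%) and 1682 genes (11.1%) were counted, DESeq2 called 20 genes and limma-voom 397, of which 1 was a member (Sec24b). In shLINE_Orf2 against shLINE_Orf1 edgeR called 0 genes too, with 2 members (5.26%) and 11.4% of all genes at an unadjusted p under 0.05; DESeq2 called 132 genes and limma-voom 837, among which were 1 and 2 members. No member was called in shLINE_MdV_I against shLINE_Orf2 (0.112% of all genes), nor in shLINE_Orf1+LINE-1 against shLINE_Orf2 (0.238%) or shLINE_MdV_I (0.68%).

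**Figure D3:**
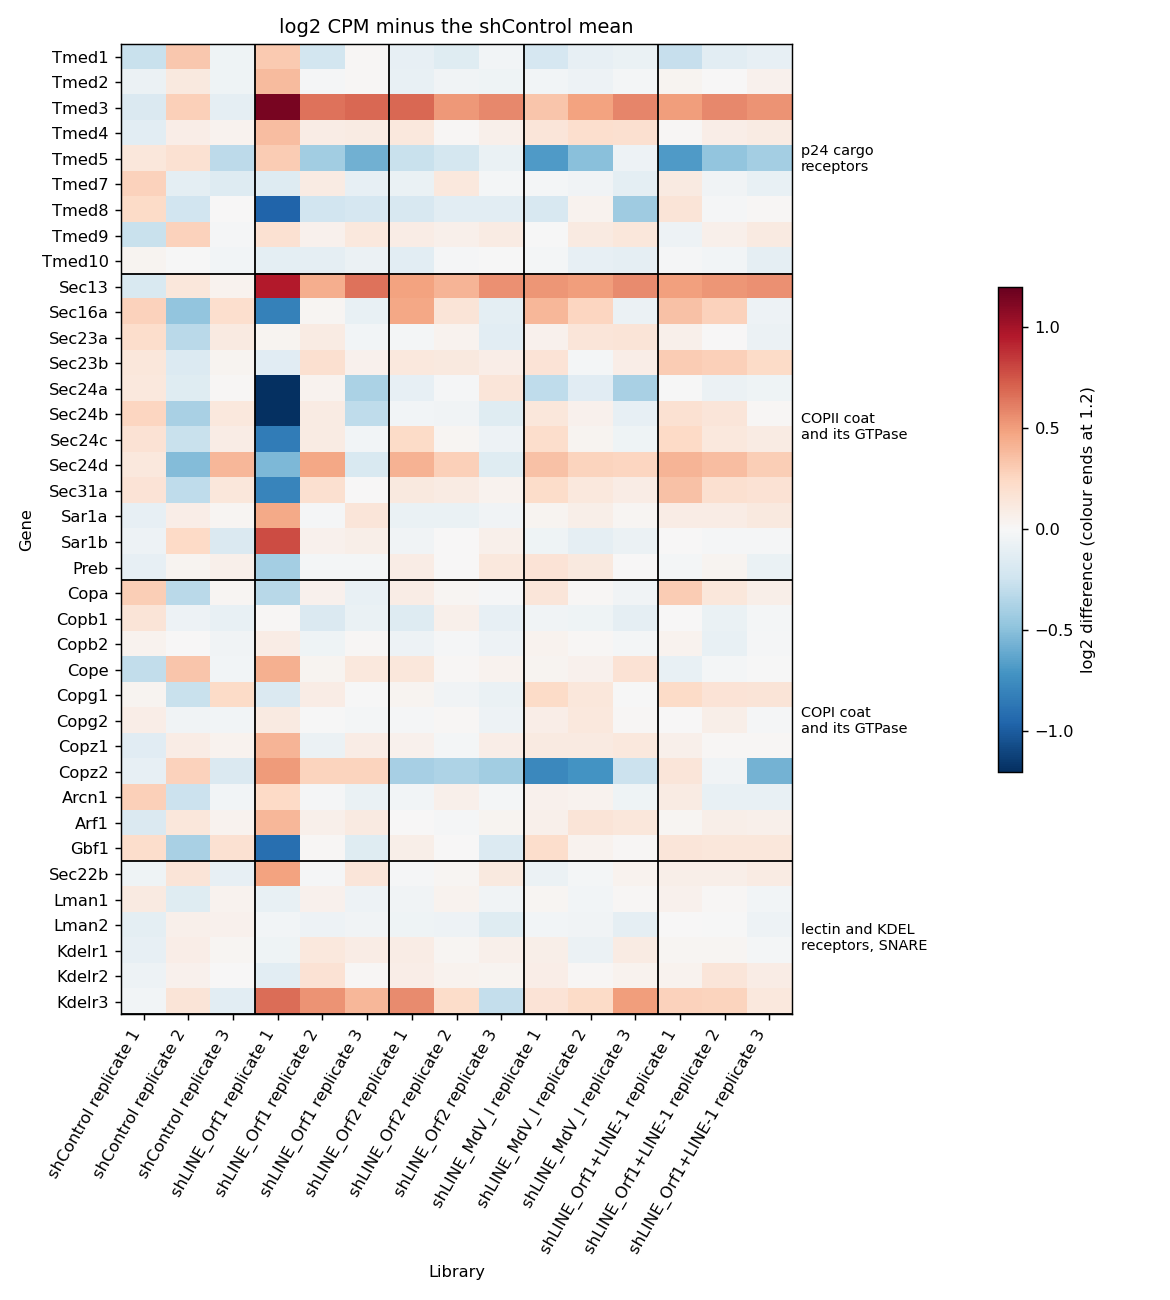
Log2 CPM of the 38 genes (rows, grouped by role) in the 15 libraries (columns) minus the mean of the 3 shControl libraries, with the colour scale ending at 1.2 in either direction. Tmed3 and Sec13 are red in all 12 columns of LINE-1 hairpins, and the column of shLINE_Orf1 replicate 1 differs from its neighbours in most rows, with long COPII genes such as Sec24a and Sec24b blue.

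Of the 9 p24 cargo receptors, 5, 3, 3 and 5 lay above shControl in shLINE_Orf1, shLINE_Orf2, shLINE_MdV_I and shLINE_Orf1+LINE-1, and the others lay below it. Apart from Tmed3, the others had log2 differences from shControl between -0.54 and 0.19 in the 4 groups. Tmed2 and Tmed10, which form the core of p24 complexes with other p24 proteins, lay between -0.10 and 0.14 of shControl on the log2 scale. Tmed2 stood at 536.4 ± 37.8 CPM in shControl and at 513 to 589 CPM in the means of the other groups, and Tmed10 was among the least variable members, with a coefficient of variation of 3.61% over the 15 libraries.
Tmed5, a p24 protein of the gamma subfamily, varied more. It stood at 50.6, 52.0 and 36.8 CPM in shControl and at 28.6, 33.0 and 34.5 CPM in shLINE_Orf1+LINE-1, so that these groups did not overlap. The log2 difference was -0.54 ± 0.21 with an adjusted p of 0.469 by edgeR, and it was -0.41 ± 0.21 in shLINE_MdV_I, where the libraries overlapped with shControl (adjusted p = 0.642). On the chromosome, 395 bases of Tmed5 exons overlap those of Mtf2 on the opposite strand, and the labels do not say whether reads were counted by strand.

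Tmed8, the member with the lowest level per length (3.32 TPM as the mean of 15 libraries), is a protein with a p24-type domain that is named with the family. It held 7.95, 13.2 and 13.5 CPM in shLINE_Orf1 and 17.2, 15.4 and 15.6 CPM with the full-length LINE-1 added. The groups did not overlap, the log2 difference was 0.47 ± 0.18, and the adjusted p was 0.422 (edgeR). The lowest of these values came from shLINE_Orf1 replicate 1, without which the difference was 0.26, and Tmed8 has one of the longest transcripts of the list at 7409 bases. In shControl it stood at 18.1, 13.2 and 15.6 CPM.

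Of the 12 genes of the COPII coat, Sec13 was the one whose libraries did not overlap with shControl in every comparison. Sec31a, its partner in the outer cage, stayed between -0.16 and 0.22 on the log2 scale in the 4 comparisons with shControl. Its libraries in shLINE_Orf1+LINE-1 lay above those of shControl, without passing the test.
Sec23b, 1 of the 2 inner coat proteins that activate the GTPase of SAR1, held 75.02, 60.8 and 69.6 CPM in shControl and 84.0, 83.1 and 79.8 CPM in shLINE_Orf1+LINE-1. That was a log2 difference of 0.27 ± 0.10 with groups that did not overlap and an adjusted p of 0.456 (edgeR). A noncoding transcript took 33.2% of the Sec23b counts in shControl replicate 2 and 0.613% to 33.2% over all libraries, so that the gene's sum includes RNA that does not encode the protein.

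The 4 Sec24 genes encode the cargo-binding subunits. Sec24a (3.50 TPM) and Sec24b (17.7 TPM) were low in shLINE_Orf1 replicate 1: Sec24a held 5.07, 12.7 and 9.45 CPM in the 3 shLINE_Orf1 libraries, against 13.5, 11.2 and 12.4 CPM in shControl. Of the shLINE_Orf1 libraries of Sec24a, 1 lay inside the shControl range and 2 below it, and the log2 differences in that group were -0.44 for Sec24a and -0.42 for Sec24b. Without both libraries that stood apart they were -0.23 and -0.29. In the other 3 groups these 2 genes lay between -0.28 and 0.09 of shControl. The median deviation of the 12 COPII genes was -0.55 in shLINE_Orf1 replicate 1 and -0.28 in shControl replicate 2, and between -0.05 and 0.18 elsewhere, which puts the lowest values of the coat in the libraries that stood apart.
Sar1a and Sar1b, the GTPases that start the coat, stood at 184 and 187 TPM on average, and their differences from shControl lay between -0.09 and 0.33. Preb, which loads SAR1 with GTP, lay between -0.15 and 0.10, and 1575 bases of its exons overlap transcripts of Abhd1 on the opposite strand. Sec16a, the scaffold of ER exit sites, was at 8.76 TPM with a coefficient of variation of 21.1%.

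The 11 genes of the COPI coat and its GTPase included the only call outside the comparison that led to the list. Copz2 encodes the less abundant of 2 zeta subunits of coatomer, and it lies on the plus strand of chromosome 11 between 96849870 and 96861203 (ENSMUSG00000018672.15). It held 6.89, 5.81 and 5.83 CPM in shLINE_Orf1 (6.18 ± 0.616) and 2.82, 2.92 and 4.04 CPM in shLINE_MdV_I (3.26 ± 0.676), so that the groups did not overlap. In shControl it stood at 4.51, 5.85 and 4.27 CPM (4.88 ± 0.855), between them and overlapping with shLINE_Orf1.
The log2 difference of Copz2 between shLINE_MdV_I and shLINE_Orf1 was -0.92 ± 0.20, a ratio of 0.53, with an adjusted p that rounds to 0.05 and lies just under the threshold (edgeR). It was the last of the 104 genes called there (0.687% of all genes, 0.436% lower), and 1 member of 38 is 2.63%. The call was lost without any 1 of the 3 shLINE_MdV_I libraries and without shLINE_Orf1 replicate 1 or 3, with adjusted p from 0.0523 to 0.284. Without both libraries that stood apart, the difference was -0.83 (adjusted p = 0.0611). The direction held in all 18 alternatives, with log2 differences from -1.10 to -0.81, and 8 of them called it.

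Copz2 was low in shLINE_Orf2 as well, at 3.65, 3.72 and 3.61 CPM (3.66 ± 0.054), below all shControl libraries (log2 difference -0.41 ± 0.20, adjusted p = 0.745) and all shLINE_Orf1 libraries (-0.75 ± 0.20, adjusted p = 0.25). Its difference from shControl in shLINE_MdV_I was -0.58 ± 0.20 (adjusted p = 0.326), again with no overlap of the libraries. With the full-length LINE-1 it held 5.36, 4.70 and 3.25 CPM (4.44 ± 1.08), which overlapped with shControl. These values were below those of shLINE_Orf1 alone by a log2 difference of -0.48 ± 0.20 (adjusted p = 0.422, edgeR).
Its paralogue Copz1, at 226 TPM against 8.16 TPM for Copz2, stayed between 0.03 and 0.15 of shControl. The large coatomer subunits differed in their spread. Copb2 had the lowest coefficient of variation of all members, 3.45%, with 209 to 237 CPM over the 15 libraries, and Copg2 followed Tmed10 with 4.04%. The coefficient was 5.85% for Copb1, 9.48% for Arcn1, 10.07% for Copg1 and 12.03% for Copa. Copg2 exons share 912 bases with those of Mest on the opposite strand.

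Arf1, the GTPase that recruits coatomer, had the highest level per length of the list, 607 TPM, followed by Tmed2 with 547 TPM. Arf1 stood at 540.2, 668 and 629 CPM in shControl and at 804, 636 and 656 CPM in shLINE_Orf1, and at 605 to 679 CPM in the other libraries. Apart from shLINE_Orf1 replicate 1, no library was above 679 CPM or below the lowest shControl value.
Gbf1, the exchange factor that activates ARF1, was at 39.7, 74.95 and 67.3 CPM in shLINE_Orf1 and at 82.2, 81.6 and 81.8 CPM with the full-length LINE-1. The groups did not overlap, and the log2 difference was 0.43 ± 0.19 with an adjusted p of 0.422 (edgeR). As for Tmed8, the lowest value was that of shLINE_Orf1 replicate 1, without which the difference was 0.195, and the transcripts are long (6084 bases). In shControl, Gbf1 stood at 85.8, 56.5 and 84.4 CPM, so that its range there included 2 of the shLINE_Orf1 values.

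**Figure D4:**
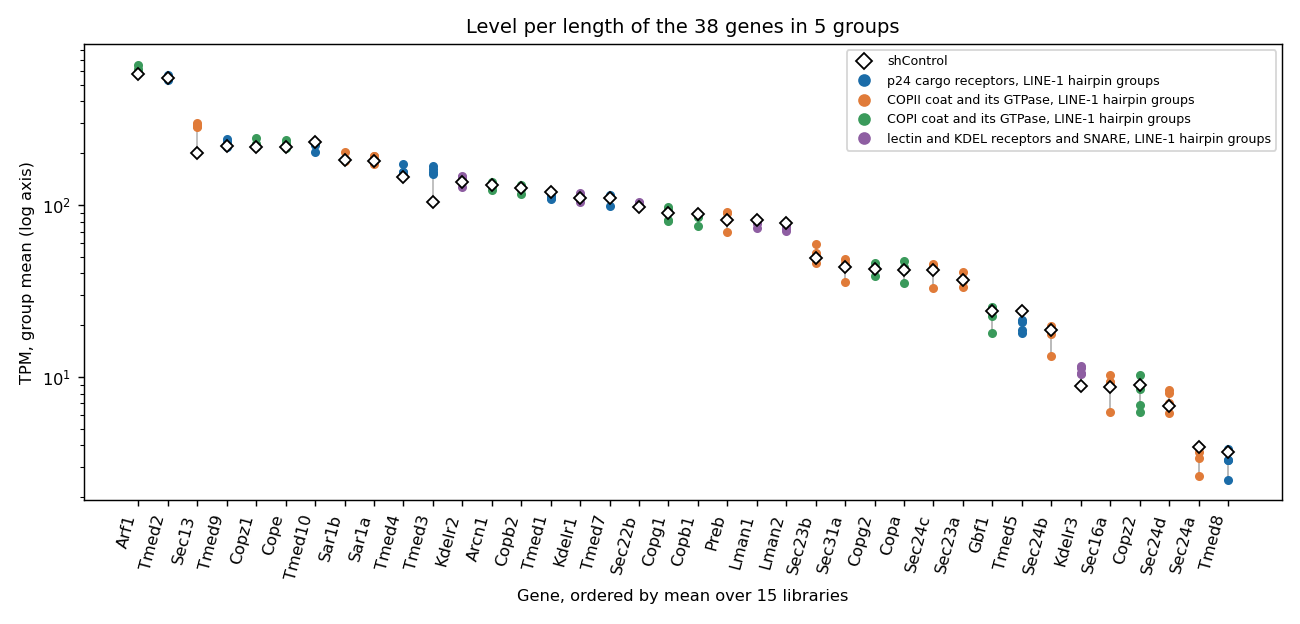
Level per length (TPM, log axis) of the 38 genes, ordered by their mean over the 15 libraries; the open diamond is the mean of shControl and each filled point the mean of 1 of the 4 groups with a LINE-1 hairpin, coloured by role. Levels run from 3.32 TPM for Tmed8 to 607 TPM for Arf1, and Tmed3 and Sec13 have all 4 filled points well above the diamond.

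The lectin and KDEL receptors and the SNARE Sec22b, 6 genes in all, had median log2 differences of 0.039, 0.045, 0.014 and 0.04 from shControl in shLINE_Orf1, shLINE_Orf2, shLINE_MdV_I and shLINE_Orf1+LINE-1. Lman1 and Lman2, which carry glycoproteins out of the ER, stayed between -0.09 and 0.01. Kdelr1 and Kdelr2, the more abundant KDEL receptors at 111 and 139.9 TPM, stayed between 0.01 and 0.09.
Kdelr3, the least abundant KDEL receptor at 10.5 TPM, held 7.09, 8.08 and 6.64 CPM in shControl and 11.6, 10.6 and 9.54 CPM in shLINE_Orf1, with a log2 difference of 0.54 ± 0.18 and groups that did not overlap. In shLINE_Orf2 it held 10.8, 8.43 and 5.94 CPM, in shLINE_MdV_I 8.13, 8.48 and 10.3 CPM, and in shLINE_Orf1+LINE-1 8.78, 8.71 and 7.92 CPM. The differences in these groups were 0.20, 0.30 and 0.22, and no test was passed (adjusted p of 0.734 to 0.986, edgeR).

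Counts of members whose libraries did not overlap were set beside those of all genes. In the comparison of shLINE_Orf1 with shControl, from which nothing is read, 4 members were higher and 1 lower (4.86% and 4.41% of all genes). Against shControl in shLINE_Orf2, 2 members were higher in all libraries and 1 was lower, beside 6.91% and 5.11% of all genes. The counts were 5 and 1 in shLINE_MdV_I (8.22% and 6.65%) and 5 and 1 in shLINE_Orf1+LINE-1 (9.53% and 7.27%). With the full-length LINE-1 added to shLINE_Orf1, 5 members were higher and 5 lower (9.46% and 7.95%). Those lower were Tmed3, Copz2, Kdelr3, Cope and Sar1b, all of which are among the 10 shortest members, and those higher were Tmed8, Sec23b, Copa, Copg1 and Gbf1.

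Several members produce abundant transcripts that do not encode the full protein. A retained-intron transcript held 77.0% of the Tmed7 counts (74.3% to 81.3% over the libraries) and 34.1% of the Tmed10 counts. Tmed7 exons also share 838 bases with those of Ticam2 on the same strand. A transcript subject to nonsense-mediated decay held 53.3% of the Sec22b counts. For these genes, the sum per gene is a sum of both kinds of RNA.

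Many genes for ER and secretory proteins are under the control of the unfolded protein response, whose factors XBP1 and ATF6 bind elements in promoters. RefSeq promoters of 300 bases (250 before and 50 after the start) were matched for 33 of the 38 members. The core of the unfolded protein response element, TGACGTGG on either strand, was found in 7 of these (21.2%), beside 112 of 11214 genes tested (1%). The windows of 28 bases around it are shown because the same 8 letters recur close to the start in genes of both coats and of a KDEL receptor. The plus-strand or minus-strand sequence is given as the gene is read, with the core in capitals.
Arf1 (chr11:59228229-59228256, minus strand): cggcaggcgcTGACGTGGctgccgtcag
Sec23a (chr12:59011994-59012021, minus strand): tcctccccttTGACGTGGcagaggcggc
Sec24d (chr3:123267460-123267487, plus strand): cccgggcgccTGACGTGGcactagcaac
Copb1 (chr7:114254691-114254718, minus strand): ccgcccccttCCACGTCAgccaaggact
Copb2 (chr9:98563714-98563741, plus strand): cccggaagttCCACGTCAgtgggttggc
Gbf1 (chr19:46152536-46152563, plus strand): aggctagttaCCACGTCAgtgagctgac
Kdelr3 (chr15:79516368-79516395, plus strand): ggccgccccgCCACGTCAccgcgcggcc
In the last 4 the core lies on the other strand, so that the strand shown reads CCACGTCA, which overlaps the box CCACG. It lay from 30 bases before to 21 bases after a RefSeq start in each gene, and in Arf1 also 84 bases before a second start.

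The log2 differences of these 7 genes from shControl ran from -0.32 (Gbf1 in shLINE_Orf1) to 0.54 (Kdelr3 in shLINE_Orf1), and none was called in any of the 10 comparisons. Tmed3 and Sec13 held no such core in these windows. The full ER stress response elements ERSE and ERSE-II, each of which ends in CCACG after a spaced CCAAT or ATTGG, were found in 0 of the 33 (0.16% and 0.07% of genes tested), and the cyclic AMP response element TGACGTCA in 1, Cope (3.42% of genes tested). The box CCACG was in 25 of the 33 (75.8%). The median GC content of the members' promoters was 58.3%, beside 60.3% for the genes tested. A match of letters is a description and not a bound site.

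Of 115 further genes of the pathway, in 6 lists, 112 passed the filter, and Tmed6, Tmed11 and Lman1l did not. The only call was Trappc6b, a subunit of the TRAPP tethering complex that activates the GTPase RAB1. Trappc6b fell in shLINE_MdV_I, to 32.0, 31.5 and 32.6 CPM from 48.4, 44.4 and 41.1 CPM in shControl (log2 difference -0.48 ± 0.09, adjusted p = 0.0238, edgeR). One call of 112 is 0.893%, beside 0.594% of all genes, and the call was made in 8 of 18 alternatives. Without shControl replicate 1 or 2, or any 1 of the shLINE_MdV_I libraries, its adjusted p lay between 0.0534 and 0.17.
The medians of the 112 genes were 0.03, -0.03, -0.03 and -0.03 in shLINE_Orf1, shLINE_Orf2, shLINE_MdV_I and shLINE_Orf1+LINE-1. In the other lists the smallest p belonged to Ergic1, Tfg, Tmf1, Sec61b and Canx, none of which was called. Over all 112 genes, the smallest p against shControl in shLINE_Orf2 and shLINE_Orf1+LINE-1 was that of Stx18, a SNARE gene that was not called. Stx18 held at most 24.84 CPM in shControl and at least 29.79 CPM in each library with a LINE-1 hairpin. For Ergic1 these values were 208.07 and 219.81 CPM, and for Lman2l, from the list of other cargo receptors, 28.9 and 29.07 CPM. Stx18, Ergic1 and Lman2l thus had the upward pattern of Tmed3 and Sec13, which 0.878% of all genes tested had. The share of the 112 genes with it was not counted. Ergic1, a membrane protein that cycles between ER and Golgi, differed from shControl by 0.24, 0.31 and 0.31 in shLINE_Orf2, shLINE_MdV_I and shLINE_Orf1+LINE-1 (adjusted p of 0.424, 0.138 and 0.204). Tfg, which organises ER exit sites, differed by 0.20, 0.22 and 0.155 in the same groups (adjusted p of 0.739, 0.543 and 0.714, edgeR).
Sec61b, a subunit of the channel through which new proteins enter the ER, differed by 0.83 ± 0.18 in shLINE_Orf1 and by 0.53, 0.63 and 0.56 in the other groups (adjusted p of 0.444, 0.194 and 0.358, edgeR). It held 50.4, 86.4 and 59.8 CPM in shControl and at least 85.2 CPM in each library with a LINE-1 hairpin, so that shControl replicate 2 lay inside the range of the others. Without that library and shLINE_Orf1 replicate 1, Sec61b passed the test in shLINE_Orf2, shLINE_MdV_I and shLINE_Orf1+LINE-1, with differences of 0.78, 0.88 and 0.81 (adjusted p of 0.00178, 0.000497 and 0.00142, edgeR). In this setting 1.77%, 2.53% and 2.30% of all genes were called. Leaving out shControl replicate 2 removed the highest shControl value of Sec61b and left fewer shControl libraries.
Canx, which encodes the lectin chaperone calnexin, differed by -0.44 ± 0.10 in shLINE_MdV_I (adjusted p = 0.07), and Tmf1, a Golgi tether, by -0.57 ± 0.17 in shLINE_Orf1+LINE-1 (adjusted p = 0.253). Of the 24 ER chaperones and regulators, 0 were called in any comparison with shControl, and Xbp1 differed by 0.30 in shLINE_Orf1 and by 0.20, 0.11 and 0.00 in the other groups.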

How the data were processed

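RNA of 15 libraries was analysed in 5 groups of 3, with groups and replicate numbers from the sample titles. The authors deposited expected counts per transcript, without normalization; the submitters' processing notes name cutadapt, RSEM and mm10, with no version, role or annotation release. Of 111462 transcript rows, 110203 were matched to GENCODE M21 (2497 of these by the ID without its version); the rest, with 1 blank row, accounted for 0.583% to 0.637% of the counts and were dropped. Counts were summed per gene and rounded.

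A second deposited table holds the authors' own mixed model per gene, with an estimate and a t score whose scale is not stated, and p-values, per the file headers. It was used for 1 remark at the end.

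Genes were filtered with filterByExpr (minimum count 10), scaled by TMM, and fitted in 1 model of the 5 groups with edgeR's robust quasi-likelihood method. The 10 pairwise comparisons were contrasts of it, with p-values adjusted by Benjamini-Hochberg over 15147 genes and a threshold of 0.05. The common biological coefficient of variation was 0.158. Log2 CPM used a prior count of 2, and TPM was computed from transcript lengths to compare genes. The fit was tested on simulated data. No pair of replicates agreed within counting noise, so none was merged.

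The members, the lists and the tests were chosen with earlier results of these data known. Given in full are Tmed3 and Sec13, members called in any comparison, the 3 members with the smallest p in each comparison with shControl and in shLINE_Orf1+LINE-1 against shLINE_Orf1, the 2 highest and 2 lowest members per length, and from each other list the genes called or else the gene with the smallest p. Other genes named were chosen after their values were seen. The alternatives were RLE scaling, library size only, no filter, a filter of 50 counts in 3 libraries, DESeq2, coding transcripts only, a fit of the compared groups alone, limma-voom with quality weights, the description number as a covariate, the replicate number as a block, a length trend removed, and leaving out 1 library or both that stood apart. Promoters came from RefSeq (GRCm38.p6). Tools were R 4.3.3, edgeR 4.0.16, limma 3.58.1, DESeq2 1.42.0, Python 3.11.15, pandas 2.3.3, numpy 2.4.6, scipy 1.17.1 and matplotlib 3.10.9.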

Additional observations from a re-analysis of the deposited data

Results flagged for a closer look

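Copz2, a zeta subunit of the COPI coat, differed between shLINE_MdV_I and shLINE_Orf1 by a log2 value of -0.92, the only member whose level in 1 LINE-1 hairpin group passed the test against another. It lay above shControl in shLINE_Orf1 by 0.34 and below it in shLINE_MdV_I by a log2 difference of -0.58, and both differences use the same shControl libraries. Its level was low, with means of 6.18 CPM in shLINE_Orf1 and 3.26 CPM in shLINE_MdV_I.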

How the results depend on the processing

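The log2 differences named for Tmed3, Sec13, Copz2, Kdelr3, Sec23b, Tmed8, Gbf1 and Trappc6b kept their sign in all 18 alternatives of each comparison, while sizes and some calls changed. The cause was not tested except where fewer libraries entered. Tmed3 was called in 6, 2 and 4 of the 18 alternatives against shControl in shLINE_Orf2, shLINE_MdV_I and shLINE_Orf1+LINE-1, with log2 differences of 0.50 to 0.74, 0.23 to 0.62 and 0.45 to 0.69. Sec13 was called in 4, 5 and 5, with 0.39 to 0.55, 0.39 to 0.60 and 0.44 to 0.60. In shLINE_Orf1, which led to the list, the differences were 0.66 to 0.99 for Tmed3 and 0.54 to 0.82 for Sec13. With the full-length LINE-1 added to shLINE_Orf1, Gbf1 ran from 0.20 to 0.61 and Tmed8 from 0.26 to 0.60, and neither was called in any of them.

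The number of members called against shControl was 2 in shLINE_Orf1, from which nothing is read, and became 0 with only the compared groups, and ran from 0 to 2 with 1 library left out (0 without shControl replicate 1 or 3, and 1 without shLINE_Orf1 replicate 3). In shLINE_Orf2 it was 0 and became 2 with DESeq2, with library size only, with limma-voom or without both libraries that stood apart, and 1 with the description number (Tmed3) or with the length trend removed. In shLINE_MdV_I it was 0 and became 2 with limma-voom or without both libraries, and 1 with DESeq2, library size only, the length trend removed or the description number (Tmed5). In shLINE_Orf1+LINE-1 it was 0 and became 2 with DESeq2, limma-voom, the length trend removed or without both libraries, and 1 with library size only. These settings called 0.132% to 3.56% of all genes in the 3 comparisons. Apart from Tmed5 where named, the members called in them were Tmed3 or Sec13, which led to the list. For shLINE_MdV_I against shLINE_Orf1 it was 1 and became 7 with the description number (7 of 38, beside 13.6% of all genes), 2 with limma-voom (5.26% beside 11.1%), and 0 with library size only, RLE scaling, only the compared groups or without both libraries, with 0 to 1 when 1 library was left out. For shLINE_Orf2 against shLINE_Orf1 it was 0 and became 1 with DESeq2 (0.871% of all genes) and 2 with limma-voom (5.53%). For shLINE_Orf1+LINE-1, limma-voom gave 1 against each of shLINE_Orf1, shLINE_Orf2 and shLINE_MdV_I in place of 0 (2.62%, 10.2% and 10.9% of all genes), and only the compared groups gave 2 against shLINE_Orf2 (Tmed5 and Copg1), 5.26% of the members beside 7.11% of all genes.

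The members' median moved in a few settings. With library size only it was 0.08 for shLINE_MdV_I and -0.052 for shLINE_Orf1 against shControl, and 0.1, 0.063 and 0.06 for shLINE_MdV_I, shLINE_Orf1+LINE-1 and shLINE_Orf2 against shLINE_Orf1. With the length trend removed it was 0.066 for shLINE_Orf1 against shControl and -0.077 for shLINE_Orf2 against shLINE_Orf1. With limma-voom it was 0.025 for shLINE_MdV_I and 0.021 for shLINE_Orf1+LINE-1 against shLINE_Orf1, and with the description number -0.006 for shLINE_Orf1+LINE-1 against shLINE_MdV_I. Without both libraries that stood apart it was 0.007 for shLINE_MdV_I, -0.023 for shLINE_Orf1 and -0.046 for shLINE_Orf2 against shControl, and 0.029 for shLINE_MdV_I and 0.025 for shLINE_Orf1+LINE-1 against shLINE_Orf1. With 1 library left out it ran from 0.004 to 0.067, -0.028 to 0.031, -0.046 to 0.021 and 0.019 to 0.062 for shLINE_MdV_I, shLINE_Orf1, shLINE_Orf2 and shLINE_Orf1+LINE-1 against shControl, from -0.002 to 0.041 for shLINE_MdV_I against shLINE_Orf2, and from 0.012 to 0.048 for shLINE_Orf1+LINE-1 against shLINE_MdV_I.

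Over all genes, the alternatives called 1 to 613 genes for shLINE_Orf1 (27 in the fit reported), 3 to 383 for shLINE_Orf2 (29), 22 to 389 for shLINE_MdV_I (90) and 2 to 539 for shLINE_Orf1+LINE-1 (21) against shControl. They called 0 to 2062 genes for shLINE_MdV_I (104), 0 to 837 for shLINE_Orf2 (0) and 0 to 397 for shLINE_Orf1+LINE-1 (0) against shLINE_Orf1. For the other comparisons the ranges were 4 to 515 (17), 0 to 1540 (36) and 20 to 1648 (103), for shLINE_MdV_I and shLINE_Orf1+LINE-1 against shLINE_Orf2 and for shLINE_Orf1+LINE-1 against shLINE_MdV_I.

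The labels do not say whether the same replicate number marks a pair across groups. Libraries with the same number correlated in their deviations from the group means by -0.271 to 0.18 over 30 pairs. Those with different numbers correlated by -0.23 to 0.303 over 60 pairs, and 1 of 15 libraries correlated best with its own number. With 3 libraries a group, these values do not decide whether a pairing exists. With the replicate number as a block, the members called became 0 for shLINE_Orf1 against shControl (4 genes in all, in place of 27) and 0 for shLINE_MdV_I against shLINE_Orf1 (55 genes in place of 104).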

Other observations

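The authors' deposited table, a mixed model of 17921 genes labelled as a young LINE-1 effect, holds all 38 members. Its adjusted p-value is 1 for every gene. In the authors' deposited table, 1 member (Tmed8, p = 0.0403) had a p-value under 0.05, beside 477 genes (2.66%), and 25 members had a positive and 13 a negative estimate. The authors' deposited table gives p-values of 0.675 for Tmed3, 0.601 for Sec13 and 0.560 for Copz2. Which samples entered that model is not stated, so these p-values need not belong to any comparison with shControl made here.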
